A study of Homo sapiens with 12 samples.

Results

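The protein kinase C (PKC) family was followed in the human proximal tubular epithelial line HK2 by mRNA sequencing. The 8 isoforms described here, PRKCA, PRKCB, PRKCD, PRKCE, PRKCH, PRKCQ, PRKCI and PRKCZ, were taken by symbol from the 58278 genes in the deposited tables. The family was picked because PRKCB appeared with short-chain fatty acids (SCFAs), so the levels with SCFAs are given as a description, without a test. All 8 passed the filter on low counts, PRKCB only because of its counts in the SCFA groups.

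The 12 libraries formed 6 groups of 2, described by the study as biological duplicates. Ctrl cells received neither TNF-α nor SCFA, and TN cells received TNF-α at 5 ng/mL for 3 h. PRTN and BUTN cells were kept for 24 h with propionate at 15 mM or butyrate at 3 mM before the same TNF-α step. TNPR and TNBU cells were given those SCFAs at the same doses for 24 h after TNF-α. All groups were 1 immortalised line, no group received an SCFA without TNF-α, and none was held for 24 h after TNF-α without an SCFA. The doses of the 2 SCFAs differed, so the compound and its dose cannot be told apart. In a bulk library, fewer cells that express a gene and less RNA per cell cannot be told apart either.

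PKC isoforms are serine/threonine kinases that relay signals arising at the membrane. Conventional isoforms (cPKC, here PRKCA and PRKCB) respond to calcium together with diacylglycerol, the nPKC isoforms (PRKCD, PRKCE, PRKCH and PRKCQ) to diacylglycerol alone, and atypical isoforms (aPKC, PRKCI and PRKCZ) to neither, being held in place by partner proteins. In renal epithelium the family is known for its part in ion transport, cell polarity and the response to high glucose, and PRKCB has been studied in diabetic kidney disease.

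Library totals ran from 27269986 to 33851130 expected counts before any scaling. Levels are given in CPM, the expected count scaled to a common library size after adjustment by trimmed mean of M values (TMM). Mitochondrial genes took 5.86% to 9.46% of counts. Of 14 renal epithelial markers, 10 to 12 reached 3 counts in the 4 libraries without SCFA and 13 to 14 in the 8 with SCFA, with summed levels of 3442 to 3606 and 3329 to 4632 CPM. VIM, KRT8, KRT18 and PAX8 were abundant, whereas the brush-border transporter SLC34A1 had at most 3 counts in any library and the endocytic receptor LRP2 was at 0 in all 4 libraries without SCFA. Against TN, 37.9% to 41.8% of the 24342 tested genes were called in the 4 SCFA groups, where a call meant a change above 1.5-fold with an adjusted p under 0.05 in limma-voom.

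PRKCB, the conventional isoform with known roles in B-cell receptor signalling and in the diabetic kidney, had almost no counts without SCFAs and a low level with either of them. Ctrl libraries held 3.01 and 2 expected counts and TN libraries held 0 and 0. The 8 SCFA libraries held 161 to 228 counts. With propionate the CPM was 6.52 and 6.94 before TNF-α (PRTN) and 6.63 and 6.28 after it (TNPR). With butyrate it was 5.03 and 6.03 before (BUTN) and 5.63 and 5.93 after (TNBU). All 8 SCFA libraries were above all 4 others. Group means were 6.73 ± 0.297 CPM for PRTN and 6.46 ± 0.244 for TNPR, against 5.53 ± 0.704 for BUTN and 5.78 ± 0.211 for TNBU (SD, n = 2). With TN set at a floor of 3 counts per library, the PRKCB level was at least 50.4-fold higher in BUTN, 52.7-fold in TNBU, 58.9-fold in TNPR and 61.4-fold in PRTN. Against the 5.01 counts summed over both Ctrl libraries, the ratio was 76.6 in PRTN, with an exact 95% counting interval of 32.7 to 238. The ratio to Ctrl was 73.6 for TNPR (31.3 to 228), 65.9 for TNBU (28.0 to 205) and 63.1 for BUTN (26.8 to 196). These intervals cover counting error only.

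**Figure D1:**
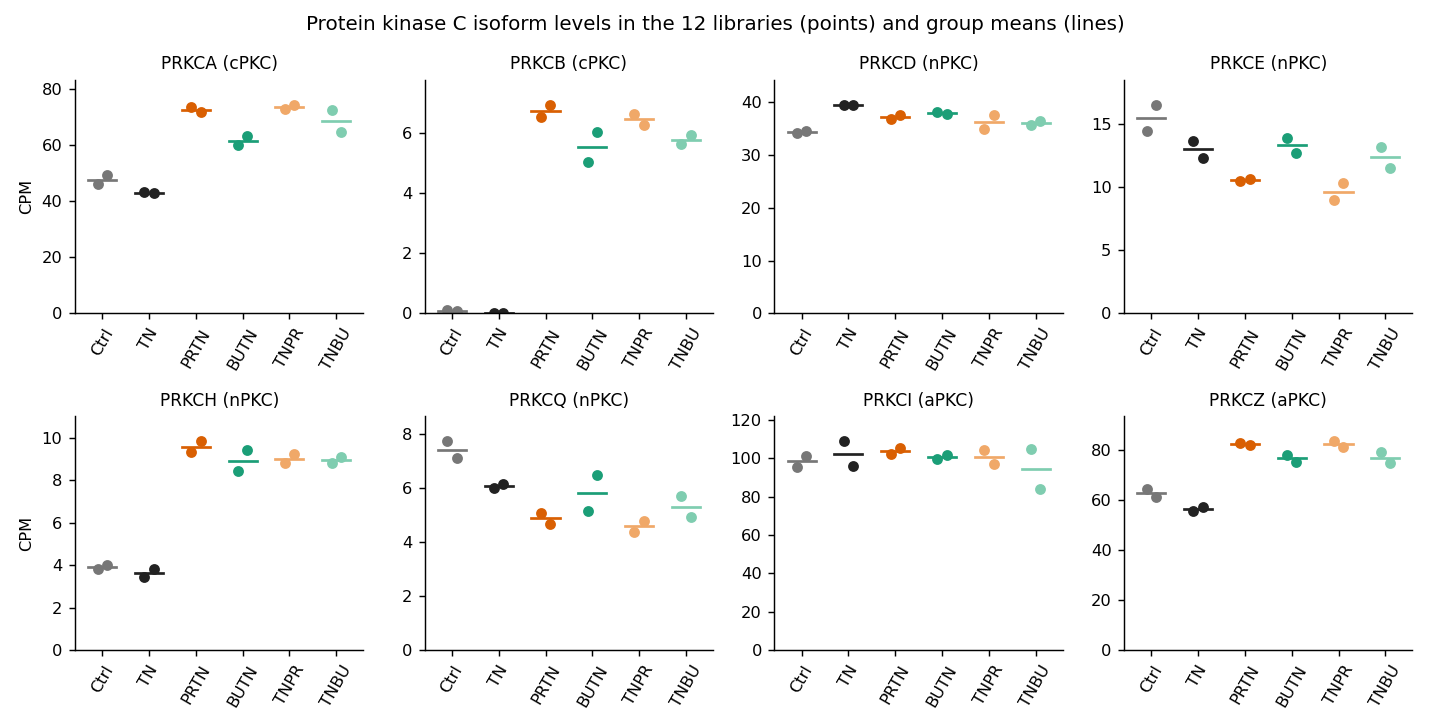
CPM of the 8 isoforms in each library, 1 panel per gene with its own linear axis from 0. Points are the 2 libraries of a group and lines their mean. PRKCB sits at or near 0 in Ctrl and TN and between 5.03 and 6.94 CPM in the 8 SCFA libraries, while PRKCI spreads from 84.0 to 109 CPM with no gap between groups.

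PRKCB lies at chr16:23835983-24220611 (GRCh38, plus strand). No gene overlapping it had more than 1 count in any library. The promoter windows of the 4 isoforms whose SCFA libraries all stood above the others (PRKCA, PRKCB, PRKCH and PRKCZ) are shown because these genes moved in the same direction. RefSeq windows were found for all 8 isoforms. Each one shown is the 250 bases before a RefSeq start on GRCh38.p14, on the strand of the gene, with the GC box GGGCGG or its reverse complement CCGCCC in capitals.
PRKCB, chr16:23835733-23835982: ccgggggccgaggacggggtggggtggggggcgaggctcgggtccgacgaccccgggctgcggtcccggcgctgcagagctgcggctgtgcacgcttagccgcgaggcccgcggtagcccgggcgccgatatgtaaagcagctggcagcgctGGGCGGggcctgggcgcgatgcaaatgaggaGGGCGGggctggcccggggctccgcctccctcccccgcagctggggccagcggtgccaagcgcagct
PRKCA, chr17:66302363-66302612: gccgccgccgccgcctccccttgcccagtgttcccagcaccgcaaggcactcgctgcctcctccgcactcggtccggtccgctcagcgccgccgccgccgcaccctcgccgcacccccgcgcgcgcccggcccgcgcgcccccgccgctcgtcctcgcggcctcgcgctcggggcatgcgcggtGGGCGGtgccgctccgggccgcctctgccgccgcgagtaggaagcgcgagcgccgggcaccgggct
PRKCH, chr14:61321329-61321578: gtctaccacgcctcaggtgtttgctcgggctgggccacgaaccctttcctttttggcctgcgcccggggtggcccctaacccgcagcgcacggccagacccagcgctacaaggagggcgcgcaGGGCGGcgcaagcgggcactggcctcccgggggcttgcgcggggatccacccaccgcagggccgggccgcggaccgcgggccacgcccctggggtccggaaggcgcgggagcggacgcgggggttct
PRKCZ, chr1:2050161-2050410: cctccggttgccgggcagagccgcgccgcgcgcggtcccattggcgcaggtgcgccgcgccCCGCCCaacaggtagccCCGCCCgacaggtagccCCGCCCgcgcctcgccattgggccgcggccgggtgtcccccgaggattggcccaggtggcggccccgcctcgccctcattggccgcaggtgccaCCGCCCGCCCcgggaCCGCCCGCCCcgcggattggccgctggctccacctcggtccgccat
The PRKCB window held 2 GC boxes, that of PRKCA 1, that of PRKCH 1 and that of PRKCZ 7. Of 35116 windows of the same length, 42.6% held at least 1, so the motif is common. The windows shown held 30 CpG in PRKCB, 47 in PRKCA, 30 in PRKCH and 37 in PRKCZ against a median of 11 over all windows. The isoforms that were not higher with SCFAs gave no uniform picture. The window of PRKCQ held 8 CpG and no GC box and that of PRKCI 12 CpG and 1, but that of PRKCE held 23 CpG and 3 boxes, and the windows at the 3 starts of PRKCD held 24, 40 and 6 CpG with 3, 2 and 1 boxes. A match of letters is a description and names no bound factor. The RefSeq start used for PRKCH lies inside the span of the gene in GENCODE release 44 (chr14:61187559-61550976), and PRKCZ has 3 further RefSeq starts, whose windows held 12, 26 and 7 CpG with 1, 0 and 0 GC boxes.

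PRKCA, the widely expressed conventional isoform, was present in every library and higher with both SCFAs. Ctrl libraries stood at 46.0 and 49.2 CPM and TN libraries at 43.2 and 42.8. Propionate libraries stood at 73.3 and 71.7 (PRTN) or 72.8 and 74.3 (TNPR), and butyrate libraries at 60.1 and 63.0 (BUTN) or 72.6 and 64.6 (TNBU). The 8 SCFA libraries did not overlap the other 4. Against TN the log2 fold change was 0.75 (SE 0.0709) for PRTN, 0.77 (SE 0.0710) for TNPR, 0.52 (SE 0.0717) for BUTN and 0.67 (SE 0.0718) for TNBU. BUTN fell short of 1.5-fold. The TNBU value lost its call without TNBU replicate 1 (0.55), and BUTN gained one when libraries were scaled by their size alone (0.67). Against Ctrl the values were 0.61, 0.63, 0.37 and 0.53 in the same order, and PRTN and TNPR were called. Without Ctrl replicate 1 both lost their call (0.56 and 0.58), and PRTN also lost it without TN replicate 1, TN replicate 2 or BUTN replicate 1 (0.58 in each) and with the filterByExpr filter of edgeR (0.57). TNBU gained a call against Ctrl without TNBU replicate 2 (0.61) and with scaling by library size alone (0.67). Ranked by mean level, TNPR, PRTN and TNBU overlapped their neighbours, and BUTN, Ctrl and TN each stood apart from the next.

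Among the nPKC isoforms, PRKCH (PKC eta, expressed in many epithelia) was the one that was higher with SCFAs. It stood at 3.83 and 4.02 CPM in Ctrl and 3.46 and 3.80 in TN. PRTN libraries stood at 9.32 and 9.82 and TNPR ones at 8.80 and 9.24, while BUTN ones stood at 8.42 and 9.42 and TNBU ones at 8.79 and 9.09. The groups with and without SCFA did not overlap, and TNPR, TNBU and BUTN overlapped one another. Log2 fold changes against TN were 1.39 (SE 0.128) for PRTN, 1.31 (SE 0.129) for TNPR, 1.29 (SE 0.129) for BUTN and 1.29 (SE 0.131) for TNBU. Against Ctrl they were 1.28, 1.20, 1.18 and 1.18 in that order.

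PRKCE and PRKCQ, nPKC isoforms with known roles in cardiac protection and in T-cell receptor signalling, had their highest mean in Ctrl and their lowest mean with propionate. PRKCE stood at 14.4 and 16.5 CPM in Ctrl and 13.7 and 12.3 in TN, at 10.5 and 10.7 (PRTN) or 8.94 and 10.3 (TNPR) with propionate, and at 13.9 and 12.7 (BUTN) or 13.2 and 11.5 (TNBU) with butyrate. PRKCQ stood at 7.73 and 7.10 CPM in Ctrl and 5.99 and 6.14 in TN, at 5.07 and 4.68 (PRTN) or 4.38 and 4.80 (TNPR) with propionate, and at 5.16 and 6.47 (BUTN) or 5.71 and 4.91 (TNBU) with butyrate. Mean levels with propionate were below those of Ctrl and TN in both genes. BUTN overlapped TN in both genes and TNBU overlapped it for PRKCE. Log2 fold changes of PRKCE against TN were -0.30 for PRTN, -0.44 for TNPR, 0.03 for BUTN and -0.08 for TNBU. For PRKCQ they were -0.32, -0.41, -0.07 and -0.20, and no value of either gene against TN was called. TN itself differed from Ctrl by -0.25 for PRKCE and -0.29 for PRKCQ, neither of them called. Against Ctrl, the log2 fold changes of PRKCE were -0.54 for PRTN, -0.68 for TNPR, -0.22 for BUTN and -0.32 for TNBU. Those of PRKCQ were -0.60, -0.69, -0.35 and -0.49. Against Ctrl, PRKCE was called in TNPR alone and PRKCQ in PRTN and TNPR. Without Ctrl replicate 1, PRKCE passed in PRTN as well (-0.64) and PRKCQ no longer did (-0.54). PRKCQ in PRTN also lost its call without PRTN replicate 2 (-0.55), and PRKCQ in TNBU gained one without TNBU replicate 1 (-0.62). Both calls in TNPR fell short of 1.5-fold when libraries were scaled by size alone (-0.57 for PRKCE and -0.58 for PRKCQ), as did PRKCQ in PRTN (-0.50).

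PRKCD, the nPKC isoform known for its part in apoptosis, varied little. It stood at 34.2 and 34.6 CPM in Ctrl, 39.4 and 39.5 in TN, and between 35.0 and 38.2 in the 8 SCFA libraries. Log2 fold changes of the SCFA groups against TN ran from -0.13 to -0.06, and none was called.

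The atypical isoforms PRKCI and PRKCZ, which bind the polarity protein PAR6, had the highest CPM of the 8 isoforms, without regard to gene length. PRKCI stood at 95.3 and 101 CPM in Ctrl and at 109 and 95.8 in TN, and the 8 SCFA libraries ran from 84.0 to 105 around a median of 102. Every group of PRKCI overlapped the next in rank, and its log2 fold changes against TN lay between -0.12 and 0.02. PRKCZ stood at 64.4 and 61.2 CPM in Ctrl and 55.4 and 56.9 in TN, at 82.4 and 81.9 (PRTN) or 83.2 and 81.0 (TNPR) with propionate, and at 77.9 and 75.0 (BUTN) or 79.0 and 74.7 (TNBU) with butyrate. Its SCFA libraries were all above the others. The log2 fold changes of PRKCZ against TN were 0.55 (SE 0.0603) for PRTN, 0.55 (SE 0.0605) for TNPR, 0.44 (SE 0.0606) for BUTN and 0.45 (SE 0.0611) for TNBU, all under 1.5-fold. With libraries scaled by size alone they were 0.71, 0.72, 0.60 and 0.65 and passed, a scaling that moved the median of all genes up by 0.16, 0.17, 0.15 and 0.20 in the same comparisons. Reads of PRKCZ can overlap those of genes on the opposite strand, since the libraries were stranded but the strand setting of the counting is not given in the sources used here. FAAP20 held 551 to 863 counts, PRKCZ-AS1 79 to 157 and RP5-892K4.1 3 to 19, against 1488 to 2848 for PRKCZ.

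Counted together, 3 of the 8 isoforms were called in PRTN against TN (40.6% of all genes were), 3 in TNPR (41.8%), 3 in TNBU (41.6%) and 2 in BUTN (37.9%), all of them higher. Against Ctrl, 4 were called in PRTN where 39.4% of all genes were, 5 in TNPR (40.4%), 2 in TNBU (40.0%) and 2 in BUTN (36.9%). Lower calls were PRKCQ in PRTN and PRKCE and PRKCQ in TNPR. The comparisons share their TN or Ctrl libraries, and the contrasts were used in picking the family, so nothing is read from these counts. The 8 SCFA libraries lay wholly above the other 4 for 4 of the 8 isoforms, which held for 27.6% of all tested genes.

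Levels of different genes were compared per kb of their annotated exons. PRKCI made up the largest part of the summed PKC level in all 12 libraries, at 41.8% ± 1.03 in Ctrl and 43.7% ± 2.30 in TN (SD, n = 2) and 36.9% to 38.3% as group means with SCFAs. PRKCZ came next, at 20.1% in Ctrl, 18.1% in TN and 22.0% to 23.2% with SCFAs, except in TN, where PRKCD took 19.9%. PRKCA took 10.5% in Ctrl and 9.52% in TN, against 13.8% (PRTN) and 14.3% (TNPR) with propionate and 12.2% (BUTN) and 13.9% (TNBU) with butyrate. PRKCB made up 0.0195% in Ctrl and 0% in TN, against 1.30% (PRTN) and 1.27% (TNPR) with propionate and 1.11% (BUTN) and 1.19% (TNBU) with butyrate. The conventional class as a whole stood at 10.5% in Ctrl and 9.52% in TN and at 13.3% to 15.6% with SCFAs, nearly all of it PRKCA. The nPKC class stood at 27.7% in Ctrl, 28.7% in TN and 23.4% to 26.2% with SCFAs, and the atypical class between 59.5% and 61.9% in every group. The shares depend on gene length: by the longest transcript, PRKCZ rather than PRKCI came first.

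**Figure D2:**
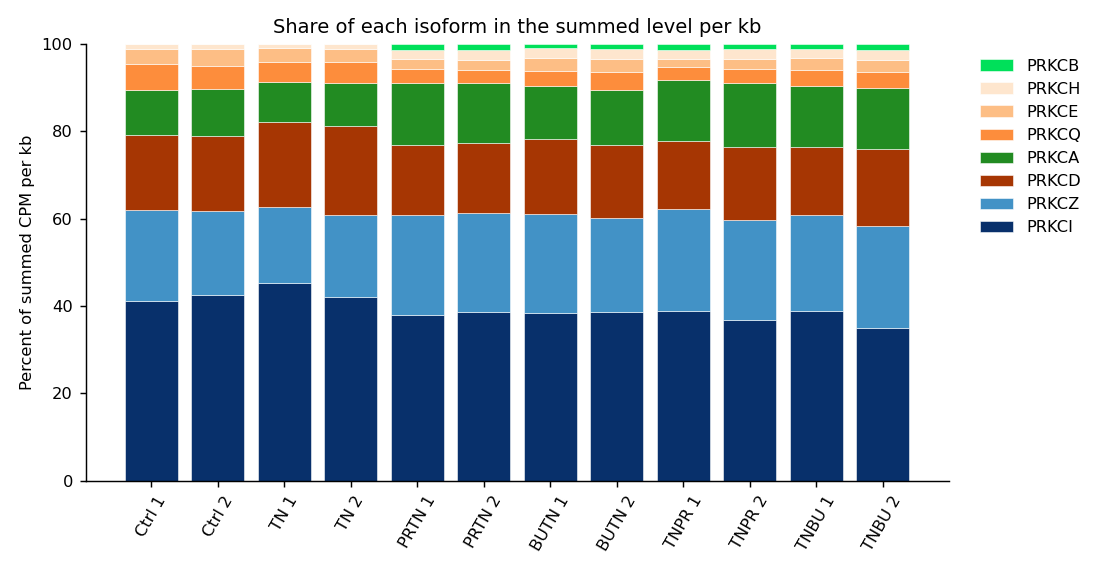
Share of each isoform in the summed CPM per kb of the 8 isoforms, 1 bar per library, exon lengths from GENCODE release 44. PRKCI and PRKCZ together fill the lower 58.2% to 62.7% of the bars, and PRKCB is a band of 1.01% to 1.33% in the 8 SCFA libraries that cannot be seen in Ctrl and TN.

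The effect of TNF-α alone was not used in picking the family and was tested. In TN against Ctrl, limma-voom called 0 of the 8 isoforms (1.3% of all genes were called), with 4 at an unadjusted p under 0.05. edgeR and DESeq2 also called 0. Here and in the comparisons below, the share of all genes refers to calls. The share of all genes at an unadjusted p under 0.05 is not given, so nothing is read from counts of isoforms at that threshold. PRKCD was the isoform that was nominally higher, with a log2 fold change of 0.20 (95% interval 0.06 to 0.34, adjusted p = 0.130). PRKCE (-0.25, adjusted p = 0.278) and PRKCZ (-0.16, adjusted p = 0.202) were nominally lower. PRKCA differed by -0.15 (-0.31 to 0.01, adjusted p = 0.348), PRKCQ by -0.29 (adjusted p = 0.318), PRKCH by -0.11 (adjusted p = 0.784) and PRKCI by 0.05 (adjusted p = 0.846). For these 7 isoforms the intervals excluded a change of 2-fold in either direction. PRKCB, the fourth at an unadjusted p under 0.05, had 5.01 counts over both Ctrl libraries and 0 over both TN libraries, too few for a fold. It was not called, except when no filter on low counts was applied. PRKCB entered the main test only through its counts with SCFAs, so nothing is read from either outcome.

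Propionate at 15 mM and butyrate at 3 mM were then set beside each other. In PRTN against BUTN, 0 of 8 isoforms were called (0.168% of all genes were), with 3 at an unadjusted p under 0.05 and 0 in edgeR and DESeq2. PRKCB was 6.73 CPM in PRTN and 5.53 in BUTN, a log2 difference of 0.28 (0.03 to 0.54, adjusted p = 0.307). PRKCA differed by 0.24 (0.09 to 0.38, adjusted p = 0.137) and PRKCE by -0.33 (-0.57 to -0.09, adjusted p = 0.204). After TNF-α, in TNPR against TNBU, 0 isoforms were called (0.00822% of all genes were), with 1 at an unadjusted p under 0.05 and 0 by the other tools. That 1 was PRKCE, at -0.36 (-0.62 to -0.10, adjusted p = 0.434). PRKCB differed there by 0.16 (-0.11 to 0.42, adjusted p = 0.751) and PRKCA by 0.10 (-0.04 to 0.25, adjusted p = 0.704). The estimate for PRKCE was below 0 in both pairs, and neither passed the adjustment.

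No isoform passed the test for the order of the steps, where TNPR and TNBU cells were also collected longer after TNF-α than PRTN and BUTN cells. In TNPR against PRTN, limma-voom called 0 of 8 (0.16% of all genes were called), with 0 at an unadjusted p under 0.05 and 0 in edgeR and DESeq2. PRKCB differed by -0.06 (-0.31 to 0.19, adjusted p = 0.887) and PRKCH by -0.09 (-0.30 to 0.12, adjusted p = 0.777). In TNBU against BUTN 0 were called (0.267% of all genes were), with 1 at an unadjusted p under 0.05 and 0 by the other tools. That 1 was PRKCA at 0.15 (0.00 to 0.30, adjusted p = 0.331), while PRKCB differed by 0.07 (-0.20 to 0.34, adjusted p = 0.853). Whether the effect of order differed between the SCFAs was tested as the difference of these differences. No isoform passed, and 0 had an unadjusted p under 0.05. That comparison called 0 genes at all (0.0%), with 935 at an unadjusted p under 0.05, 1 called in edgeR and 4 in DESeq2. For PRKCB the difference was 0.13 (-0.24 to 0.49).

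**Figure D3:**
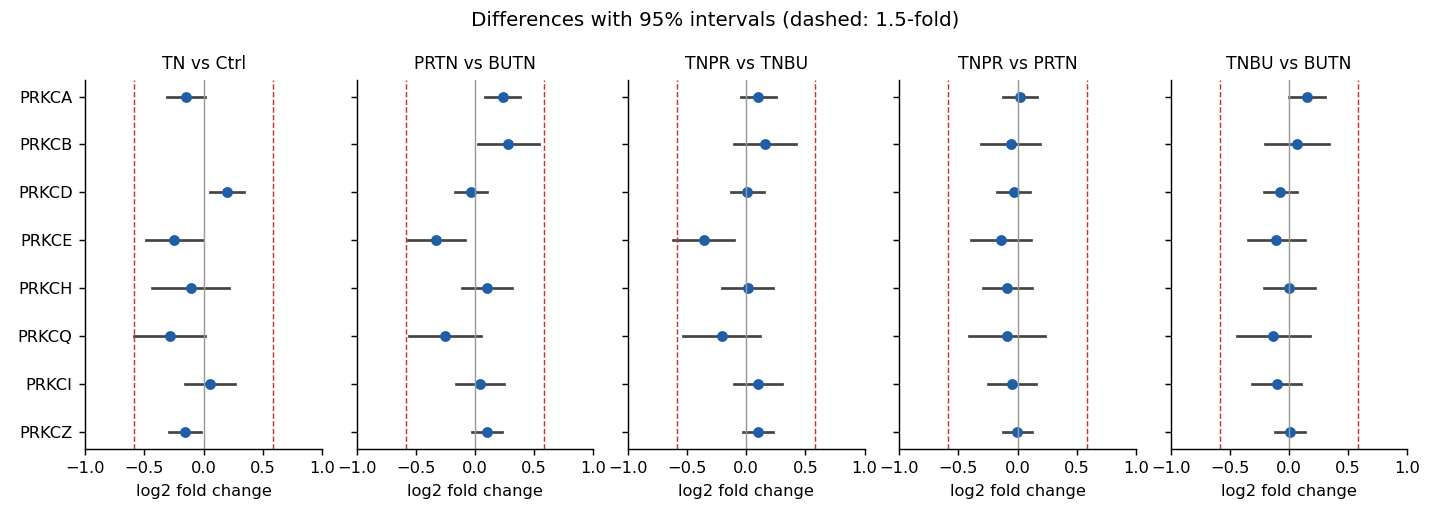
Log2 fold changes of the isoforms in the 5 comparisons that were tested, with 95% intervals from limma-voom and dashed lines at 1.5-fold. PRKCB is left out of TN vs Ctrl, where both groups were at or near 0. All points lie within the dashed lines. The unadjusted intervals of PRKCE stay below 0 in both comparisons of propionate with butyrate, and neither passed the adjustment.

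Other genes of diacylglycerol and PKC signalling were taken from 8 lists of 80 genes, of which 77 were tested. Against TN, 26 were higher in all 4 SCFA groups (18.4% of all genes were), 14 were lower in all 4 (11.9%), 11 were called in some groups and 26 in none. In either direction, 62.3% of the tested list genes were called in PRTN against 40.6% of all genes, and 61.0% against 41.8% in TNPR. The shares were 59.7% against 41.6% in TNBU and 54.5% against 37.9% in BUTN. The lists were chosen with earlier results of these data known, so nothing is read from these shares.

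Among the related kinases, PRKD2, a diacylglycerol-responsive relative of PKC, rose by 1.11 to 1.38 on the log2 scale in the 4 groups. PKN3, a relative with a similar kinase domain, changed by -1.38 to -1.08, and 4 relatives were not called. PRKD2 and PKN3 were named for the size of these same changes, so no test is read from them.

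Upstream, phospholipase C enzymes make diacylglycerol. Of 12 tested, 8 rose in all 4 groups (18.4% of all tested genes did) and 1 fell in all 4 (11.9%). Of the others, 1 was called in some groups and 2 in none. PLCD1 changed by 2.39 to 2.74, PLCH2 by 1.57 to 2.59 and PLCB2 by 1.39 to 2.02. Diacylglycerol kinases remove it, and of 9 tested, DGKA alone was higher in all 4 groups (1.70 to 1.82), DGKE and DGKG were lower in all 4, 3 were called in some and 3 in none. Of 8 other diacylglycerol receptors, 5 were higher and 1 lower. RASGRP1, the Ras exchange factor of T cells, went from 73.6 and 73.2 CPM in TN to between 7.03 and 13.9 in the SCFA libraries. RASGRP2, an exchange factor for Rap, held 1 to 4 counts without SCFA and 118 to 148 with. UNC13A, which primes synaptic vesicles, rose by 3.54 to 3.85. The lists were chosen with earlier results known, so nothing is read from the counts of single lists, here or below.

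Downstream, 4 of 13 PKC substrates were higher in all 4 groups (18.4% of all tested genes were) and 3 lower (11.9%). The calmodulin-binding substrate NRGN rose by 3.10 to 3.36, PPP1R14C, an inhibitor of protein phosphatase 1, by 2.86 to 3.70, and the membrane-skeleton protein ADD2 by 1.35 to 1.84. Of 12 scaffolds and regulators, 2 were higher and 2 lower. The anchoring protein AKAP5 rose by 1.54 to 2.13, while PRKCDBP, a caveolar protein that binds PRKCD, changed by -1.82 to -1.46 and the phosphatase PHLPP2 by -1.34 to -0.79. Among 10 partners of the atypical isoforms, 2 were higher and 2 lower: PARD6G rose by 0.92 to 1.16, PARD3 changed by -1.22 to -1.03 and SQSTM1 by -1.46 to -0.75. Of the 6 genes of the CARD-BCL10-MALT1 complex, which PRKCB and PRKCQ activate in lymphocytes, 2 were higher and 2 lower, CARD14 by 2.81 to 3.07, CARD9 by -1.72 to -1.09 and MALT1 by -1.18 to -0.94.

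TNF-α alone called 3 of the 77 list genes (1.3% of all genes). AKAP12, a scaffold that binds PKC, rose from 182 and 216 CPM in Ctrl to 312 and 319 in TN (log2 fold change 0.67, adjusted p = 0.00258 in limma-voom). LLGL2, a polarity protein phosphorylated by atypical PKC, went from 2.40 and 2.04 to 0.745 and 1.15 CPM (-1.24, adjusted p = 0.0281). PLEK, the platelet substrate pleckstrin, held 0 counts in Ctrl and 3 and 5 in TN, too few for a fold. The count of 3 became 0 without Ctrl replicate 1, and 1 without Ctrl replicate 2 or without either TN or either PRTN replicate, where AKAP12 alone was left. edgeR called AKAP12 and LLGL2, and DESeq2 called AKAP12. RASGRP1, at 49.5 and 46.3 CPM in Ctrl and 73.6 and 73.2 in TN, was not called (0.62, adjusted p = 0.0793 in limma-voom) but passed under 6 of the alternatives. The comparisons of propionate with butyrate and of SCFA before with after TNF-α called 0 of the 77, and 0 in edgeR and DESeq2. Between 6 and 19 had an unadjusted p under 0.05 in limma-voom. The share of all genes at that threshold is not given, so nothing is read from these numbers.

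**Figure D4:**
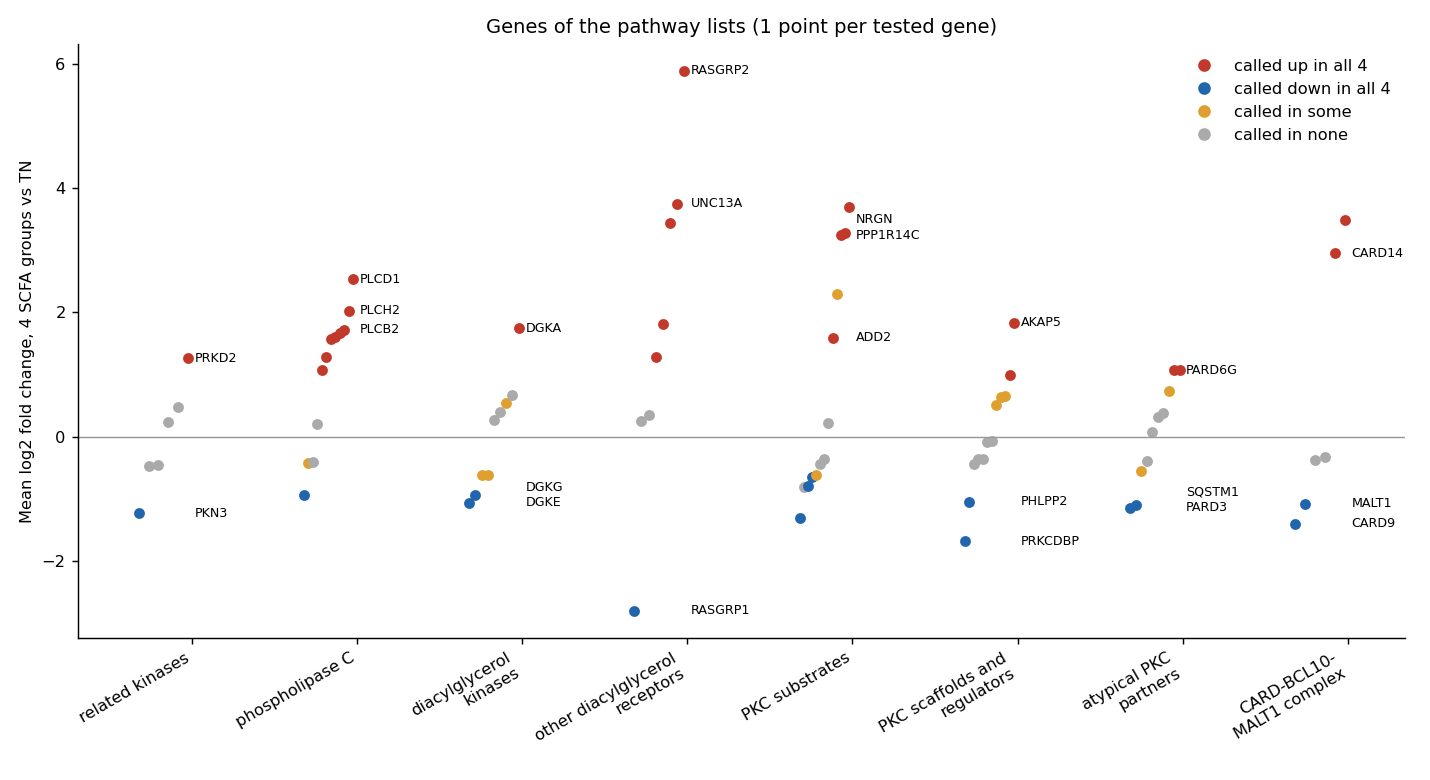
Mean log2 fold change against TN over the 4 SCFA groups for 76 of the 77 tested genes of the 8 lists, 1 point per gene, coloured by call. Up to 3 genes per list, chosen by the size of their change among those with at least 1 CPM, are named. In each of the 8 lists points lie on both sides of 0. Phospholipase C holds 8 genes that were higher in all 4 groups, as were 18.4% of all tested genes. Nothing is read from that count.

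The pattern of PRKCB over the 12 libraries was most closely followed by FAIM2, NRXN2, ALPPL2, MRO and BMP6, measured by the root mean square difference of centred log2 CPM. The difference was 0.377 for FAIM2, 0.433 for NRXN2, 0.476 for ALPPL2, 0.526 for MRO and 0.570 for BMP6. FAIM2 held at most 1 count without SCFA and 77 to 137 with, and NRXN2 at most 4 and 305 to 412. ALPPL2 has near-identical relatives that can share its reads. With 2 counts added in place of 0.5, 1 of the 5 stayed among the closest, so the ranking depends on how counts near 0 are treated.

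Genes that mark leukocytes and neurons, cell types known to express PRKCB, were also read in each library. Of 18 leukocyte markers, 4 to 5 reached 3 counts in the libraries without SCFA and 7 to 11 in those with SCFA, and their summed level was 2.19 to 2.55 CPM against 30.3 to 40.1. CORO1A (701 to 963 counts), CD79B and CD14 made up most of it with SCFAs, while the defining markers PTPRC, CD3E, MS4A1 and PF4 had 0 to 5 counts in every library. Of 15 neuronal markers, 9 to 10 were detected without SCFA and 13 with, summing to 443 to 503 and 714 to 779 CPM. ELAVL4 was at 0 in all 12 libraries and STMN2 had at most 2 counts, whereas SYN1, MAP2 and SYP were higher in all 8 SCFA libraries. The part of these markers in the result for PRKCB was not tested.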

How the data were processed

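Messenger RNA of HK2 cells was sequenced as 12 libraries, grouped by title and source label. A treatment text shared by all libraries names 2 other compounds, and each library's own label was followed. Per the file headers, the authors deposited expected counts per gene, 1 table per library, in unnormalised form. Per the labels and the methods, TruSeq stranded mRNA libraries were checked with FastQC 0.11.5, aligned to GRCh38 with STAR 2.6.1a and quantified with RSEM on GENCODE release 26. The strand setting of RSEM is not given in the sources used here. Expected counts estimated by RSEM need not be whole, and 19.3% of values were not.

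As in the methods, genes whose expected counts had a geometric mean below 1 were left out (1 was added to each count and subtracted again), which left 24342 genes and removed 33936. TMM factors ran from 0.913 to 1.06. limma 3.58.1 (voom, in R 4.3.3) was fitted to all 12 libraries with 1 mean per group, and p-values were adjusted by Benjamini-Hochberg over all tested genes. A gene was called at an adjusted p below 0.05 where it changed by more than 1.5-fold. edgeR 4.0.16 and DESeq2 1.42.0, on rounded counts, were alternatives. The tests were also run on simulated data, in which only genes with many counts were changed, between TN and Ctrl. The outcome is not given here. Such a run says nothing about genes near the floor, such as PRKCB, or about the comparisons with SCFA groups. With 2 libraries per group, p-values measure the spread between these libraries. Within groups, the libraries differed by more than counting error.

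The isoforms and lists were chosen with earlier results of these data known, and comparisons of SCFA groups with TN or Ctrl were used in that choice. Named genes were the 8 isoforms, genes overlapping them, list genes called in TN against Ctrl, up to 3 per list with the largest mean change among those called in 1 direction in all 4 SCFA groups against TN and reaching 1 CPM, and the 5 genes closest to PRKCB in pattern. The values of 1 list gene are not reported here. Marker genes outside these rules were named after their values were seen. Lengths and positions came from GENCODE release 44 on GRCh38, in which 57437 of 58278 listed gene IDs were found. Promoter sequences came from RefSeq (GRCh38.p14).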

Additional observations from a re-analysis of the deposited data

How the results depend on the processing

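Over 22 alternative settings, the 112 log2 fold changes of the isoforms (8 genes in 14 comparisons) gave 2450 values, of which 2419 stayed on their side of the threshold, 21 lost a call, 10 gained one and 0 of the called ones changed sign. Uncalled values near 0 changed sign in 80 cases. PRKCB gained a call in TN against Ctrl without a filter, where 1 isoform passed, on too few counts for a fold. With libraries scaled by size alone, 4 isoforms were called in BUTN against TN in place of 2, and 3 in TNPR against Ctrl in place of 5. With a literal geometric mean PRKCB was not tested, and 1 isoform was called in BUTN against TN, 1 in BUTN against Ctrl and 1 in TNBU against Ctrl, in place of 2 each. At a fold change over 2, 2 isoforms were called in PRTN against Ctrl and 2 in TNPR against Ctrl, in place of 4 and 5. PRKCQ in PRTN against Ctrl fell just short with relative log expression scaling (-0.58).

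Of the 77 list genes, 1 (AKAP12) was called in TN against Ctrl by DESeq2, in place of 3. When only the compared groups were fitted, none of those 3 was called and 1 other gene was (RASGRP1, higher). RASGRP1 also passed with the literal geometric mean and without either TNPR or either TNBU replicate. Leaving out 1 library gave 0 to 3. At a fold change over 2, 31 list genes were called in TNBU against Ctrl in place of 47. In PRTN against BUTN, 1 list gene (PLCB2, lower) was called with the literal geometric mean and 1 when only the compared groups were fitted, and 0 to 1 when 1 library was left out. In TNBU against BUTN, 1 (PPP1R14C, higher) was called with the literal geometric mean, and 0 to 1 when 1 library was left out. The cause of these changes was not tested.

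The replicate numbers did not pair the libraries: deviations of same-numbered libraries correlated at -0.0334 to 0.0670 over 15 pairs of groups, 0 of them over 0.1. With the replicate number as a block, 1 list gene was called in TNBU against BUTN, and the counts of isoforms called moved by no more than 1.5 times in any comparison.

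The share of PRKCB in the summed level with SCFAs, 1.22% per kb of exons, was 0.943% by the longest transcript and 1.93% as a share of raw counts. That of PRKCI, 37.9%, became 25.2% and 31.5%. At 3 counts per library as the floor, depth limits any statement on PRKCB in Ctrl and TN.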
